A study of Homo sapiens with 18 samples.

Results

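CD38 and 9 further genes of NAD metabolism were followed in RNA-sequencing counts of BE(2)-m17 cells that did or did not overexpress ABCC1, a membrane transporter of organic anions. The members were chosen by symbol: CD38, BST1, SARM1, ACMSD, QPRT, NAMPT, NMNAT1, NMNAT2, NADK and NNT. All 10 were found, among 57905 Ensembl gene identifiers in the count tables. Each symbol matched 1 identifier.

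BE(2)-m17 is a human neuroblastoma line. All groups carried APP, the amyloid precursor protein, on the transposon pSBbi-Hyg-APP. The ABCC1-overexpressing cells also carried pSBbi-Pur-ABCC1(WT), with a codon optimized ABCC1, and the control cells (Puro) carried the empty pSBbi-Pur. The lines were stable cells selected with hygromycin and puromycin, with 1 transfected line behind each arm, so the 3 libraries of a group share a transfection. Cells were plated at 14000000 per well and taken on day 4. Such a set of 3 against 3 libraries was sequenced in 3 experiments (18 libraries), which the study ran on its first cells, on cryopreserved cells and on newly transfected cells. The labels only number the experiments and say nothing of separate cultures. The study's methods describe a weekly plating of each line without tying replicate numbers to weeks, so p-values measure at most the spread between platings of 1 line per arm. In the first experiment ABCC1 libraries 1 and 2 differed by little more than counting error (chi-square per degree of freedom 1.49). Library 3 differed from them by 21.5 and 16.1, and the control libraries differed among themselves by 2.12 to 4.44.

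NAD is an electron carrier and also a substrate that several enzymes break down. CD38 and its neighbour BST1 are ectoenzymes that hydrolyse NAD and make cyclic ADP-ribose, a messenger that releases calcium, and SARM1 is the axonal NAD hydrolase that drives axon degeneration. Cells replace NAD from tryptophan through the kynurenine pathway, where QPRT makes nicotinic acid mononucleotide and ACMSD diverts an intermediate away from it, or from nicotinamide through NAMPT. NMNAT1 in the nucleus and NMNAT2 in the cytosol and axon carry out the last step of the route from nicotinamide. NADK adds the phosphate of NADP, and NNT couples the mitochondrial proton gradient to NADPH. In neurons the loss of NMNAT2 is a known trigger of SARM1.

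Assigned counts ranged from 27433393 to 57937653 per library in the first experiment, from 19577853 to 30996228 in the second and from 8866994 to 13332413 in the third. The exogenous ABCC1 sequence had 328102 to 594404, 84990 to 148783 and 51035 to 58631 counts in the ABCC1 libraries of the 3 experiments, and at most 15 in any control library. All 9 adrenergic neuroblastoma markers searched had counts in every group, with a summed level of 7582 to 12265 CPM. Their median was 57.1 to 168 CPM per kilobase over the groups. The lowest value was 0.799 in the control and 0.368 in the ABCC1 cells of the second experiment, beside mean background levels, described below, of 0.618 and 0.325. In the third it was 2.39 and 2.37, beside 1.69 and 1.33. Of these 9 markers, 2 were higher and 5 lower with ABCC1 in the first experiment (edgeR, as for the members), beside 37.6% of all genes tested, and 1 was higher and 2 lower in the third, beside 2.80%. Among them MYCN had a log2FC of 0.45 (adjusted p = 0.00257) and CHGA of −0.51 (adjusted p = 6.42e-05), and the part of this difference between the lines in the values of the members was not tested. In the second experiment edgeR called 0 of the 9 and DESeq2 3 higher, beside 10.9% of all genes. DESeq2 called 2 of 8 higher and 1 lower in the third, beside 10.5% and 1.06%. With DESeq2's size factors edgeR called 1 higher and 0 lower there, beside 966 and 199 of 36509 genes. CD38 is best known from leukocytes. Of 9 leukocyte markers, MS4A1 was at 0 in both arms of the first experiment, and PTPRC had at most 3 counts in a library. The median of the 9 was 0.00959 CPM per kilobase in the control cells and 0.0045 in the ABCC1 cells. The 9 summed to 39.0 to 76.8 CPM over the groups, led in the first experiment by the syndecan SDC1. Of the leukocyte markers tested, 1 of 2 was lower with ABCC1 in the first experiment, 0 of 8 in the second and 2 of 8 in the third, where 0.767% of all genes were lower. DESeq2 called 0 of 3 in the first and 1 of 2 in the third, and edgeR with DESeq2's size factors called 1 of 8 in the third. With the background level of each library as a covariate, described next, 0 were called in any experiment, and their part in the values of CD38 was not tested.

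The libraries of the later experiments carried reads on genes taken as silent in these cells. The mean over 273 olfactory receptor genes overlapped by no other gene was taken as the background level of a library. It was 0.00357 to 0.00367 CPM per kilobase of exon in the control libraries of the first experiment and 0.00221 to 0.0027 in the ABCC1 libraries. In the second experiment it was 0.519 to 0.722 in the control and 0.154 to 0.456 in the ABCC1 libraries, and in the third 1.59 to 1.76 and 1.19 to 1.55. The background was thus lower with ABCC1 in every experiment, with no overlap between the arms. The study's methods and the label for the kit give TruSeq v2 for the first experiment and a stranded SMARTer total RNA kit for the later ones, while the extraction text in the labels gives SMARTer for all samples. Taken by the methods, the kit of the first experiment cannot be told apart from its cells, while the second and the third share a kit.

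Transcript levels of the members spanned a wide range. CPM per kilobase of exon not shared with another gene is used here to compare genes. In the control cells of the first experiment NMNAT2 was highest at 48.3 ± 1.03 and NNT followed at 16.9 ± 0.368 (SD, n = 3, as for the others). ACMSD had 9.46 ± 0.555, SARM1 9.06 ± 0.661, NADK 5.24 ± 0.249, QPRT 5.13 ± 0.567 and NAMPT 4.03 ± 0.156. NMNAT1 had 1.53 ± 0.14, BST1 0.705 ± 0.0863 and CD38 0.126 ± 0.0241. The library ranges of ACMSD and SARM1 overlapped, as did those of NADK and QPRT, and the other neighbours in this order did not overlap. NMNAT2 led in all 6 groups. In the ABCC1 cells of the first experiment ACMSD stood last, at 0.0147 ± 0.00441, with libraries overlapping those of CD38 at 0.0163 ± 0.00552.

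**Figure D1:**
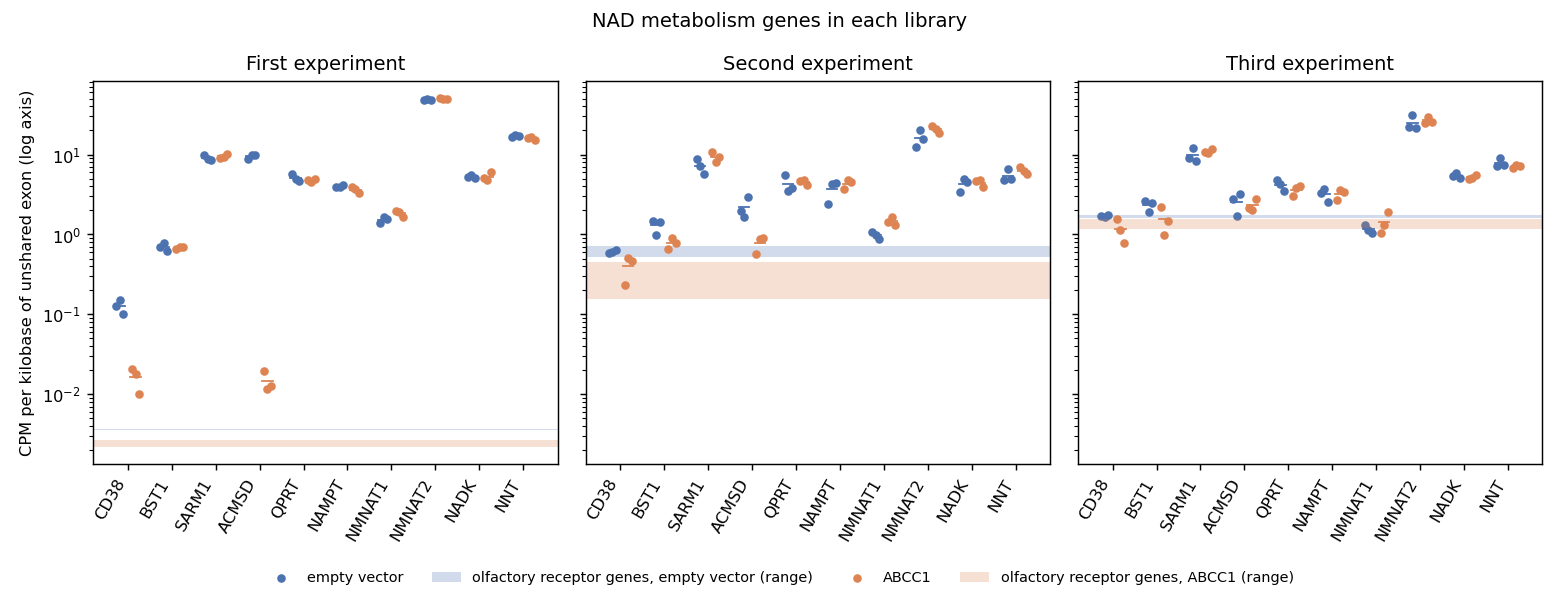
Level of each member in each library, in CPM per kilobase of unshared exon on a log axis, with points for libraries, short lines for the means of 3 and bands for the range of the olfactory receptor level. CD38 and ACMSD lie far lower in the ABCC1 libraries of the first experiment, while in the third experiment the lowest members lie beside the bands.

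CD38 and NMNAT2 lie at the ends of the order in the control cells of the first experiment, and the RefSeq windows (GRCh38.p14) of 250 bases before their starts are shown for that reason, with each CG dinucleotide in capitals. The CD38 window is chr4:15778078-15778327 on the plus strand, and the NMNAT2 window shown is chr1:183418381-183418630 on the minus strand, the more upstream of 2 listed starts.
CD38: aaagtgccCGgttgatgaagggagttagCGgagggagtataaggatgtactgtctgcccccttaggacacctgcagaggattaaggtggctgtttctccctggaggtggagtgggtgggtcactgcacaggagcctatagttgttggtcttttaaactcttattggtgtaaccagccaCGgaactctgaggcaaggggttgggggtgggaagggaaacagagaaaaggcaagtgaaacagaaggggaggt
NMNAT2: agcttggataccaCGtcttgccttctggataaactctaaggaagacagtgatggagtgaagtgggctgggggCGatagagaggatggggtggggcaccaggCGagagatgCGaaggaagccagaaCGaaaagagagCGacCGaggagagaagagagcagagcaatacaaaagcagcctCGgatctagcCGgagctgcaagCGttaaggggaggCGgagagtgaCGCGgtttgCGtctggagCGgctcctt
The CD38 window holds 3 CG dinucleotides and the NMNAT2 window shown 15, while the window of the other NMNAT2 start holds 4, and the median of all 35116 windows of this length was 11. The letters CCAAT, searched on both strands, occur in the CD38 window and in neither NMNAT2 window, and in 32.0% of all windows. RefSeq windows were found for 8 of the 10 members. The window of NAMPT has 34 CG dinucleotides, that of NMNAT1 21 and that of SARM1 23, while the windows of QPRT have 1 and 2. BST1 and ACMSD had no entry.

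CD38 (ENSG00000004468) lies at chr4:15779898-15854853 (GRCh37, plus strand), shares no bases with another gene, and was singled out by the study from the first experiment. It had 38, 28 and 22 counts in the control libraries of that experiment and 8, 4 and 4 in the ABCC1 libraries. Every ABCC1 library was below every control library. In bulk libraries, fewer expressing cells and less RNA per cell cannot be told apart. The log2FC of ABCC1 over control was −2.95 (SE 0.32, adjusted p = 5.58e-05, quasi-likelihood test of edgeR, adjusted by Benjamini-Hochberg over all genes tested). With the background of each library as a covariate it was −1.61 (adjusted p = 0.617, same test). That background rests on 22 to 46 olfactory receptor counts per library and does not overlap between the arms. The fit can therefore hardly separate it from the line, and its calls over all genes fell from 6382 to 268. No conclusion on CD38 is drawn from the lost call.
Against the background of its own library, CD38 stood 28.0 to 42.0 times higher in the control libraries and 4.54 to 7.64 times in the ABCC1 libraries. In the second experiment these ratios were 0.821, 1.15 and 1.04 in the control and 1.52, 1.37 and 1.02 in the ABCC1 libraries. In the third they were 1.01, 1.04 and 0.984 against 1.01, 0.902 and 0.66. The arms, which were apart in CPM in both later experiments, overlapped in these ratios. CD38 lay between 0.66 and 1.52 times the level of olfactory receptor genes in all 12 libraries, and the log2FC of −0.61 in the second (adjusted p = 0.351) and −0.56 in the third experiment (adjusted p = 0.188) was measured at this level. With the background as a covariate these were −0.0079 and 0.11, so no direction is read from them.

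BST1 (ENSG00000109743, chr4:15704573-15739936, plus strand) is the other NAD-cleaving ectoenzyme and lies just before CD38. It had 90, 63 and 57 counts in the control libraries of the first experiment and 108, 65 and 118 in the ABCC1 libraries, or 1.81 to 2.31 CPM against 1.91 to 2.03. The arms overlapped, and the log2FC was −0.05 (95% interval −0.35 to 0.24, adjusted p = 0.794). The interval of CD38 in the same libraries was −3.66 to −2.23.
The second experiment gave BST1 4.33, 2.91 and 4.14 CPM in the control and 1.91, 2.61 and 2.29 CPM in the ABCC1 libraries, with no overlap (two-sided and exact permutation test of the library values, p = 0.1, which is the lowest value that 3 libraries per arm can give). In the third it had 7.64, 5.62 and 7.3 CPM against 6.41, 2.92 and 4.29, with overlap. Neither difference passed the test, with log2FC values of −0.74 (adjusted p = 0.268) and −0.59 (adjusted p = 0.299). BST1 stood 170 to 314 times over background in the first experiment, 1.72 to 4.23 times in the second and 0.798 to 1.53 times in the third.

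SARM1 (ENSG00000004139, chr17:26691378-26728065, plus strand) had 26.7 to 30.7 CPM in the control and 28.1 to 31.9 CPM in the ABCC1 libraries of the first experiment. The arms overlapped in all 3 experiments. Its log2FC was 0.06 (95% interval −0.09 to 0.22), 0.37 (0.02 to 0.73, adjusted p = 0.217) and 0.16 (−0.16 to 0.48). Of its 8132 exon bases 61.4% also belong to other genes, 4336 of them to SLC46A1 on the other strand, and reads there were not assigned or cannot be told apart by strand.

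ACMSD (ENSG00000153086, chr2:135596117-135659604, plus strand), the decarboxylase that draws the kynurenine pathway away from NAD, had the largest fold change of the members. It had 1033, 721 and 825 counts in the control libraries of the first experiment and 3, 1 and 2 in the ABCC1 libraries. In CPM this was 23.7, 26.5 and 26.2 against 0.0531, 0.031 and 0.0345. The arms were far apart, and the summed normalized counts were 617 times higher in the control cells (95% counting interval 283 to 1683, from 2579 and 6 counts). The log2FC of the fit was −9.18 (adjusted p = 4.30e-11, edgeR), a value that depends on the prior count and whose interval in the fit is narrower than the counting interval. In the control libraries ACMSD stood 2404 to 2757 times over background and in the ABCC1 libraries 4.87 to 7.3 times.
The second experiment gave 120, 132 and 165 counts in the control libraries and 40, 51 and 76 in the ABCC1 libraries, which is 5.31, 4.42 and 7.95 CPM against 1.53, 2.34 and 2.45. All ABCC1 libraries were again lower. The log2FC was −1.48 (SE 0.36, adjusted p = 0.0376). This call was lost without control replicate 1 (adjusted p = 0.0809), 2 (0.0561) or 3 (0.243), without ABCC1 replicate 2 (0.121), and with the background as a covariate (log2FC −1.02, adjusted p = 0.711). Relative to the background of each library the arms overlapped, at 2.73, 3.16 and 4.82 times in the control and 3.68, 2.37 and 2.00 times in the ABCC1 libraries.
In the third experiment ACMSD had 82, 50 and 83 counts against 68, 64 and 91. The arms overlapped, with a log2FC of −0.13 (95% interval −0.66 to 0.40, adjusted p = 0.87), and the level was 1.06 to 2.35 times that of background. The control level was 9.46 CPM per kilobase in the first experiment, 2.19 ± 0.682 in the second and 2.56 ± 0.787 in the third, a difference that was not tested because the experiments differ in cells and the first also in kit.

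**Figure D2:**
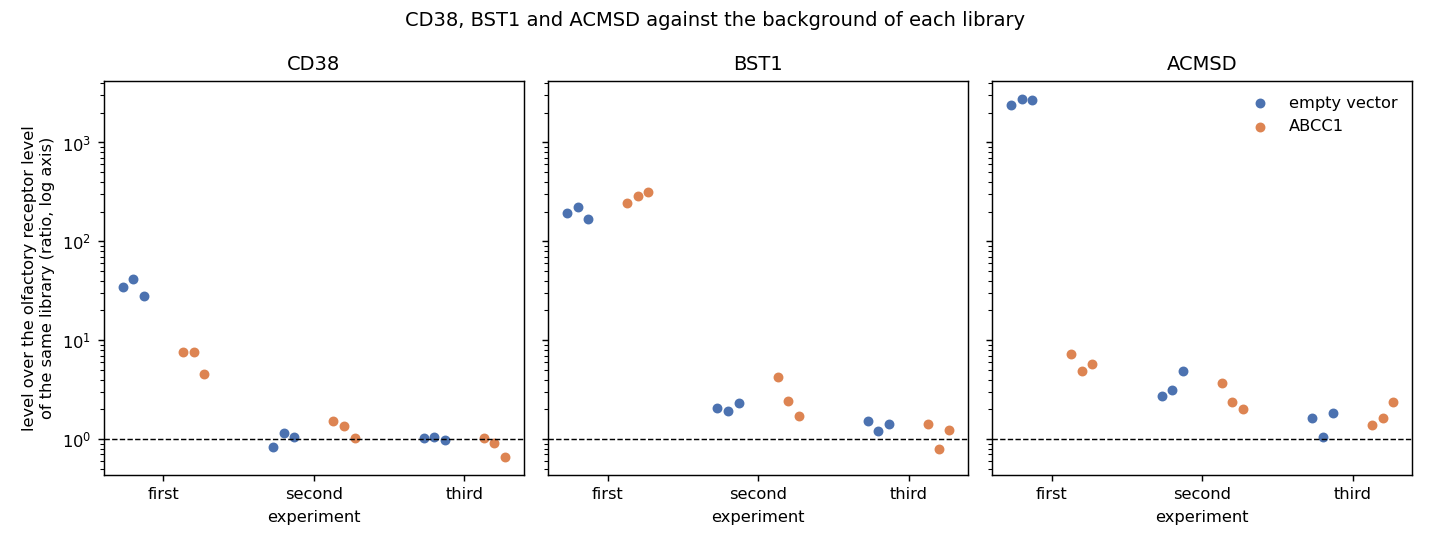
Level of CD38, BST1 and ACMSD divided by the olfactory receptor level of the same library, on a log axis, with 1 point per library and a dashed line at 1. The arms of CD38 and ACMSD are separate in the first experiment and overlap in the second and the third, where CD38 lies at the dashed line.

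CCNT2-AS1, a noncoding gene on the opposite strand, shares 94 of the 2785 exon bases of ACMSD, and the counting did not use strand. It had 42, 22 and 26 counts in the control and 25, 15 and 25 in the ABCC1 libraries of the first experiment. Its log2FC was −0.98 (SE 0.21, adjusted p = 0.00382). The genes around ACMSD were examined only after its values were seen. Of the 5 other tested genes whose span reaches within 500 kb of it, MGAT5 (log2FC −0.07), CCNT2 (−0.06) and RAB3GAP1 (0.06) did not pass the test and ZRANB3 rose by 0.38 (adjusted p = 0.000905).
Around CD38 the same distance held 7 other tested genes in the first experiment. The 6 other protein-coding genes did not pass the test. CC2D2A had a log2FC of 0.06, FBXL5 0.03, FAM200B −0.11, TAPT1 0.09 and PROM1, the stem cell antigen CD133, −0.46 (adjusted p = 0.0733). The noncoding TAPT1-AS1 fell by 0.73 (SE 0.13, adjusted p = 0.00127).

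**Figure D3:**
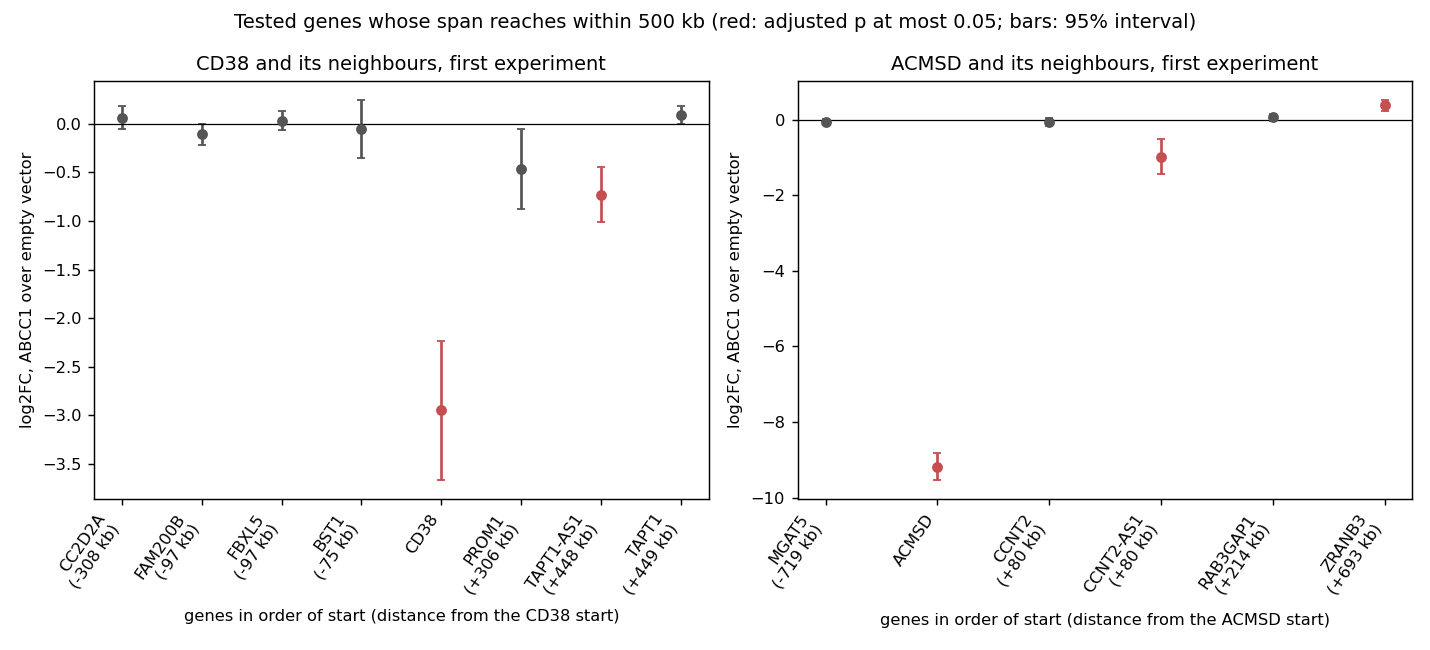
Log2 fold change with its 95% interval in the first experiment for tested genes around CD38 (left) and ACMSD (right), in order of their starts. CD38 at −2.95 and ACMSD at −9.18 stand below all tested neighbours, and red marks an adjusted p of at most 0.05. The fitted interval of ACMSD is narrower than its counting interval.

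QPRT (ENSG00000103485, chr16:29674600-29710020, plus strand), which commits the kynurenine pathway to NAD, had 21.0, 17.9 and 17.1 CPM in the control and 17.5, 16.3 and 18.1 CPM in the ABCC1 libraries of the first experiment. The arms overlapped in each experiment. Its log2FC was −0.11 (95% interval −0.30 to 0.07), 0.08 (−0.30 to 0.46) and −0.21 (−0.59 to 0.16).

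NAMPT, NMNAT1 and NMNAT2 did not pass the test within any of the 3 experiments. NAMPT (ENSG00000105835, chr7:105888731-105926772, minus strand), the rate-limiting salvage enzyme, had 32.7, 32.5 and 34.8 CPM in the control and 32.1, 30.5 and 27.6 CPM in the ABCC1 libraries. The ABCC1 libraries were all lower, and the log2FC of −0.15 (95% interval −0.29 to −0.005) missed the test at an adjusted p of 0.0968. The arms overlapped in the later experiments, at 0.23 (−0.15 to 0.62) and 0.03 (−0.30 to 0.36).

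NMNAT1 (ENSG00000173614, chr1:10003486-10045559, plus strand), the nuclear enzyme, had 5.75, 6.9 and 6.47 CPM in the control and 8.19, 7.9 and 6.84 CPM in the ABCC1 libraries of the first experiment. The arms overlapped there, and in the second experiment they did not, with 4.42, 4.12 and 3.71 against 5.92, 6.87 and 5.48 CPM. The third gave 5.46, 4.81 and 4.38 against 4.36, 5.5 and 7.92 CPM, with overlap. No single experiment passed the test, with log2FC values of 0.27 (adjusted p = 0.0597), 0.58 (0.256) and 0.28 (0.705). In the first it was called without a filter on low counts (adjusted p = 0.0184) and without ABCC1 replicate 3 (log2FC 0.36, adjusted p = 0.00354).
Its level was below that of background in 4 of the 6 libraries of the third experiment, at 0.595 to 1.6 times.

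NMNAT2 (ENSG00000157064, chr1:183217372-183387737, minus strand), the axonal enzyme, had 340.1, 354 and 344 CPM in the control and 360.2, 358 and 358 CPM in the ABCC1 libraries of the first experiment. The arms did not overlap, yet the difference was small and did not pass the test (log2FC 0.05, 95% interval −0.03 to 0.13, adjusted p = 0.313). The later experiments gave 0.37 (−0.01 to 0.76) and 0.10 (−0.27 to 0.48), with overlapping arms.

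NADK (ENSG00000008130, chr1:1682671-1711896, minus strand), the cytosolic NAD kinase, had 28.4 to 31.1 CPM in the control and 27.2 to 34.1 CPM in the ABCC1 libraries of the first experiment, with log2FC values of 0.02 (95% interval −0.16 to 0.21), 0.05 (−0.29 to 0.40) and −0.06 (−0.38 to 0.26). NNT (ENSG00000112992, chr5:43602794-43707507, plus strand) had 133 to 139 CPM against 120.4 to 134 CPM, with −0.09 (−0.19 to 0.01), 0.22 (−0.13 to 0.56) and −0.15 (−0.48 to 0.18). The arms of both genes overlapped in all 3 experiments.

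**Figure D4:**
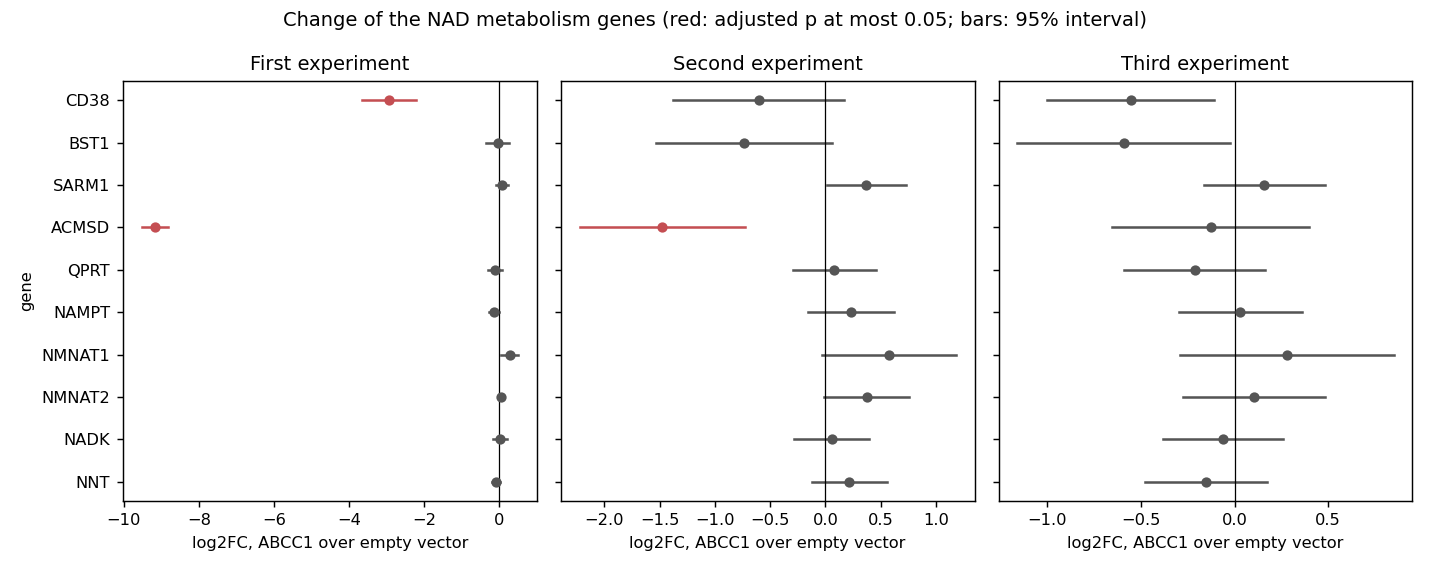
Log2 fold change of ABCC1 over control for the members in the 3 experiments, with the 95% interval and a separate scale in each panel. In red, with an adjusted p of at most 0.05, are CD38 and ACMSD in the first experiment and ACMSD in the second. The fitted interval of ACMSD in the first experiment is narrower than its counting interval.

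Counted over the members, 2 of 10 were called in the first experiment, both lower with ABCC1, where 37.6% of the 16995 genes tested were called (17.9% higher and 19.7% lower). CD38 and ACMSD passed the filter on low counts there through the control libraries alone. The second experiment had 1 of 10 called, lower with ABCC1, against 1.70% of 34091 genes (1.25% higher and 0.458% lower). This split of 425 higher and 156 lower genes depended on the setting. It was 2130 and 453 in DESeq2, and 350 and 438 with at least 10 counts in every library. Without ABCC1 replicate 3 it was 593 and 766, and with the spread shared over all 18 libraries 2106 and 2817. In the third edgeR called 0 of 10, against 2.80% of 36509 genes (2.03% higher and 0.767% lower). An unadjusted p under 0.05 in edgeR was reached by 4, 2 and 2 of the 10 members in the 3 experiments. Over all genes tested it was reached by 7926 of 16995, 7243 of 34091 and 5551 of 36509. In the third these members were CD38 and BST1, and DESeq2 also called 0 of the 7 members it gave an adjusted p. The median log2FC of the members was −0.07, 0.15 and −0.09 in the 3 experiments, and that of all genes tested 0.01, −0.19 and −0.09.

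A fit of all 18 libraries with experiment as a term tested an effect common to the experiments. Its p-values take the libraries of an arm as independent, though those of 1 experiment share a transfection. The cryopreserved cells may also share the transfection of the first experiment. The fit called 2 of 10 members, against 12.4% of 46225 genes (8.72% higher and 3.72% lower). CD38 fell by 1.01 (SE 0.23, adjusted p = 0.00164) and NMNAT1 rose by 0.44 (SE 0.13, adjusted p = 0.0209). The median of all genes in this fit was −0.16, and with DESeq2's size factors it was −0.25, which gave 2822 higher and 2812 lower genes in place of 4033 and 1718. NMNAT1 was then not called (adjusted p = 0.0886), and with the background as a covariate neither gene was (0.218 for CD38 and 0.315 for NMNAT1). SARM1 had a log2FC of 0.26 (adjusted p = 0.0511), ACMSD of −2.42 (adjusted p = 0.101) and BST1 of −0.39 (adjusted p = 0.157). DESeq2 called ACMSD (adjusted p = 0.0139) and BST1 (0.0308) in this fit.
The difference between experiments was tested directly by the interaction of line and experiment, which called 2 of 10 members, against 1.19% of genes. For ACMSD (adjusted p = 2.44e-22) the log2FC was 7.58 higher in the second and 9.004 higher in the third experiment than in the first. For CD38 (adjusted p = 0.00772) it was 2.23 and 2.35 higher. Both were also called with the background of each library as a covariate (adjusted p = 8.85e-33 for ACMSD and 0.000302 for CD38). Since CD38 lay at the background level in the later libraries, and ACMSD near it in the third experiment, their smaller changes there do not show how ABCC1 acted on them.

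Among 13637 genes compared, those whose level followed CD38 most closely over the 18 libraries were TNR, KCNN3, NOX5, CDH13 and TC2N (Pearson r of log2 CPM centred within experiments 0.949 to 0.960). The values were not centred within arms, so the difference between the arms enters r. These points also share libraries, depth and background, and no shared regulation is read from them. CDH13, an atypical cadherin, had 190, 113 and 107 counts in the control and 0, 0 and 1 in the ABCC1 libraries of the first experiment. TC2N had 142, 108 and 108 against 0 in all 3, while TNR, the matrix protein tenascin-R, had 252, 176 and 177 against 42, 26 and 48. Over the 12 libraries of the later experiments the members' own correlation with the background was 0.843 for CD38, 0.787 for ACMSD and 0.697 for BST1, and −0.683 for NMNAT2.

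Further genes of NAD metabolism were taken from 9 lists with 88 genes. In the first experiment 73 were tested, of which 15 were higher and 13 lower with ABCC1 (38.4%, beside 37.6% of all genes), with a median log2FC of 0.0016 beside 0.0074 for all genes. With the background as a covariate, which does not overlap between the arms, 1 remained called, SLC12A8, beside 268 of all 16995 genes tested. Folds did not all shrink in that fit, where AOX1 had 1.79 (adjusted p = 0.0558), PARP14 1.17, MTHFD2 −0.39 and ADPRS 0.38. Among those smaller there than in the main fit were ALDH1L2 at −0.17, IDH2 at −0.25, TPCN1 at 0.18, AFMID at 0.17 and NOCT at 0.08. Called genes outside the naming rule are named here because their values were seen.

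NADP and NADPH genes formed the list with the largest share of calls in the first experiment. Of 14 tested, 2 were higher and 7 lower, beside 17.9% and 19.7% of all genes. The lower genes were ALDH1L2 (log2FC −0.54, SE 0.06, adjusted p = 4.50e-05), IDH2 (−0.39, SE 0.04, adjusted p = 6.51e-05), PGD, MTHFD2, IDH1, ME2 and MTHFD1 (−0.38 to −0.18). They are enzymes of mitochondrial and cytosolic folate metabolism, isocitrate dehydrogenases, a malic enzyme and PGD of the pentose phosphate pathway. IDH2 had 104, 106 and 99.3 CPM in the control libraries against 81.4, 77.7 and 77.4 in the ABCC1 libraries. ALDH1L2, IDH2 and MTHFD2 were called lower again in the third experiment, at −0.71, −0.74 and −0.73, where MTHFD2 lost its call with DESeq2's size factors (adjusted p = 0.066). Their values in the second were −0.16, −0.24 and −0.12, none called.
The higher genes were ME3, which DESeq2 did not call (adjusted p = 0.0905), and NOCT, a phosphatase that removes the phosphate of NADP and NADPH. NOCT had 15.7, 16.8 and 16.05 CPM in the control and 19.5, 20.8 and 21.1 in the ABCC1 libraries of the first experiment. It had 15.5, 16.6 and 14.3 against 26.6, 23.5 and 24.8 in the second, and 18.5, 22.7 and 20.5 against 32.7, 30.8 and 35.6 in the third. The arms were apart each time, and the log2FC was 0.34 (adjusted p = 0.00155), 0.69 (0.0296) and 0.68 (0.00635). With the background as a covariate it was 0.08, 0.59 and 0.59, none called.

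Salvage and Preiss-Handler genes were higher in 3 and lower in 0 of 6 tested in the first experiment, beside 17.9% and 19.7% of all genes. AOX1, an aldehyde oxidase that clears methylated nicotinamide, rose by 1.05 (SE 0.17, adjusted p = 0.000694) with 2.55, 2.53 and 3.65 CPM against 6.63, 6.60 and 4.93. In the later experiments AOX1 had 0.14 and 0.04, neither called. NT5E and NADSYN1 rose by 0.26 and 0.32. Of de novo synthesis 2 of 5 tested genes were higher there, beside 17.9% of all genes. They were AFMID (0.33, adjusted p = 0.00201) and AADAT (0.15, adjusted p = 0.0391). AFMID makes kynurenine and AADAT is a kynurenine aminotransferase. DESeq2 did not call AADAT (adjusted p = 0.0736).

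In the list of NAD transport and repair 1 of 6 was higher and 2 lower in the first experiment, beside 17.9% and 19.7% of all genes. SLC12A8, proposed as a carrier of nicotinamide mononucleotide, fell by 1.88 (SE 0.08, adjusted p = 6.53e-08). It had 13.6, 12.8 and 14.2 CPM in the control and 3.54, 3.81 and 3.74 CPM in the ABCC1 libraries, and its log2FC in the later experiments was −0.78 and −0.16, neither called. SLC25A51, the mitochondrial NAD carrier, rose by 0.19 (adjusted p = 0.048), a call that DESeq2 did not make (adjusted p = 0.113), and NAXE, which repairs hydrated NADH, fell by 0.19.

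Of poly(ADP-ribose) genes 1 of 11 was higher and 2 lower, and of the mono(ADP-ribose) genes 1 of 8 was higher and 1 lower, beside 37.6% of all genes called. ADPRS, which removes ADP-ribose from serine, had 35.0, 39.3 and 37.5 CPM in the control and 48.4, 48.4 and 47.4 CPM in the ABCC1 libraries. It rose by 0.37 (adjusted p = 0.000345), and by 0.88 (adjusted p = 0.000189) in the third experiment, with 0.50 (adjusted p = 0.0904) in the second. PARP14 rose by 0.82, while PARP11, PARP2 and TNKS2 fell by 0.35, 0.27 and 0.11, of which DESeq2 did not call TNKS2 (adjusted p = 0.0978). In the first experiment edgeR and DESeq2 each called 0 of 7 sirtuins. In edgeR 1 of them had an unadjusted p under 0.05, as did 7926 of the 16995 genes tested. DESeq2 called 1 of 7 higher in the second, beside 10.9% of all genes. The common fit called 2 higher in edgeR, beside 8.72%, and 1 higher in DESeq2, beside 3397 of 34923 genes.

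Of 8 genes that act on NMNAT2 and SARM1 in axons, 3 were higher and 1 lower in the first experiment, beside 17.9% and 19.7% of all genes. PELI1, STMN2 and FBXO45 rose by 0.29, 0.17 and 0.12 and SKP1 fell by 0.20, and FBXO45, a subunit of the ligase that degrades NMNAT2, rose by 0.58 (adjusted p = 0.0349) in the third experiment too. DESeq2 did not call FBXO45 in the first (adjusted p = 0.0843). In the second it called 5 of the 8 genes higher, beside 10.9% of all genes, FBXO45 (adjusted p = 0.0425) and PELI1 (0.0361) among them. SKP1 had 0.10 and 0.24 in the later experiments, neither called, and 0.20 in the first with the background as a covariate. Of 8 targets of the messengers that CD38 makes, 2 were higher in the first experiment, beside 17.9% of all genes. TPCN1, a lysosomal calcium channel, rose by 0.45 (adjusted p = 0.000104) and the ryanodine receptor RYR2 by 0.23 (adjusted p = 0.0307), with −0.39 and −0.07 for RYR2 in the later experiments, neither called.

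Over all lists in the second experiment 2 of 87 tested genes were higher, NOCT and MAP3K13, and 1 was lower, TRPM2, against 1.70% of all genes. DESeq2 called 10 of 80 higher and 1 lower there, beside 10.9% and 2.31% of all genes by DESeq2, and with the background as a covariate edgeR called 0. In the third 3 of 87 were higher (NOCT, ADPRS and FBXO45) and 3 lower (ALDH1L2, IDH2 and MTHFD2), against 2.80%. With DESeq2's size factors the third split was 5 higher and 2 lower, beside 966 and 199 of 36509 genes. DESeq2 itself called 7 of 67 higher and 3 lower, beside 10.5% and 1.06% of all genes by DESeq2. With the background as a covariate 0 were higher and 1 lower, beside 29 and 63 of 36509 genes. The lower gene was PARP2 (log2FC −1.04, adjusted p = 0.0377), while ADPRS had 0.47 (adjusted p = 0.626) and FBXO45 0.16 (adjusted p = 0.939). The common fit called 23 of 88 higher and 4 lower, beside 8.72% and 3.72% of all genes, with a median of 0.10 beside −0.16 for all genes. DESeq2 called 16 of 87 higher and 10 lower, beside 3397 and 3919 of all 34923 genes. With the background as a covariate edgeR called 7 higher and 2 lower, beside 1025 and 369 of 46225. With DESeq2's size factors edgeR called 14 higher and 8 lower, beside 6.10% and 6.08%.

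**Figure D5:**
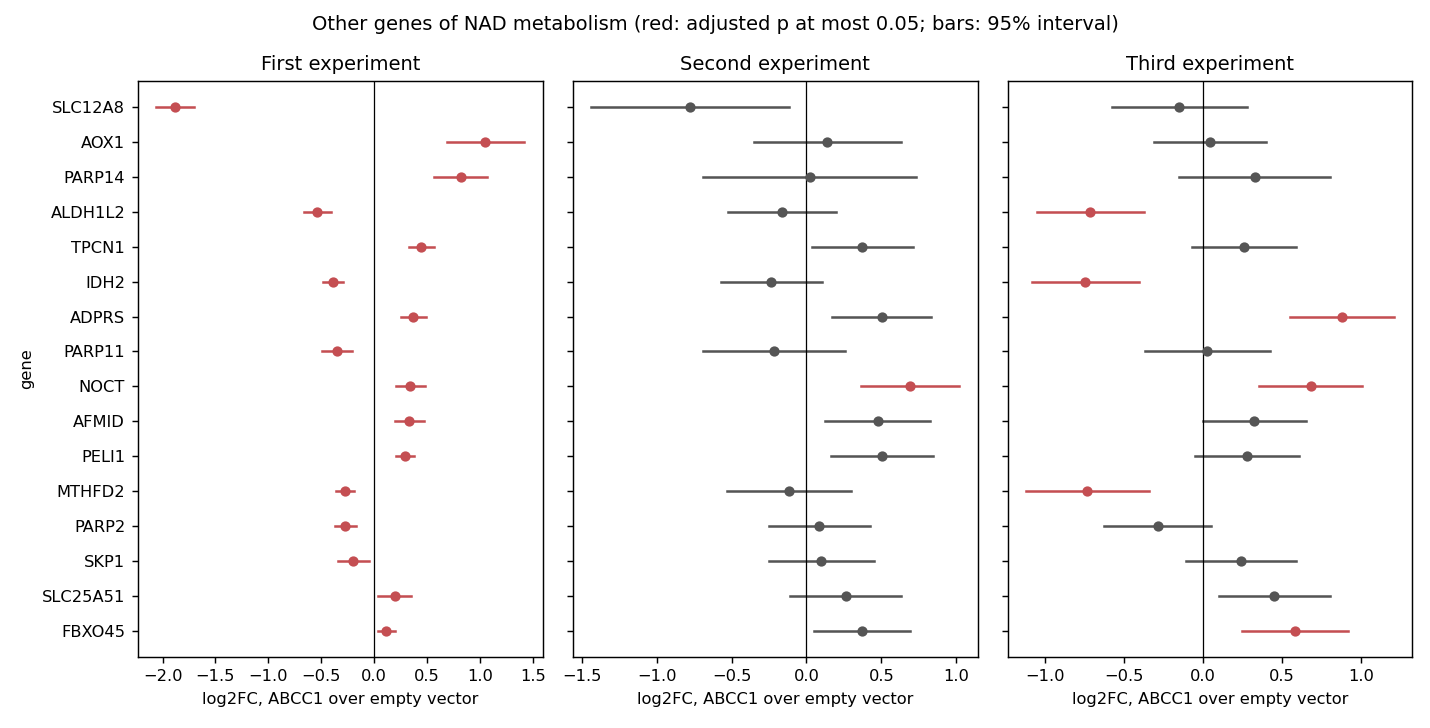
Log2 fold change with its 95% interval for the 16 other NAD genes chosen by the naming rule, in the 3 experiments, with a separate scale in each panel. NOCT is red (adjusted p at most 0.05) and above 0 in each panel, and SLC12A8 has the lowest value of these genes in the first and second experiments.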

How the data were processed

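RNA of 18 libraries was sequenced, and the deposited tables hold raw read counts per gene. Per the labels and the study's methods, the authors aligned reads with STAR 2.7.3a to GRCh37 plus vector sequences and counted exons with featureCounts from Subread 2.0.0, without strand, which also applied to the strand-specific kit. Conversion used bcl2fastq 2.18. Counts of 92 spike-ins were left out, and 6 vector sequences entered the fit but no count of genes. Of 57905 identifiers 51996 were given a symbol.

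Counts were scaled by TMM and tested with edgeR 4.0.16 (R 4.3.3) by the robust quasi-likelihood test, ABCC1 against empty vector within each experiment, after filterByExpr at a minimum count of 10, with Benjamini-Hochberg adjustment over all Ensembl genes tested. A gene was called at an adjusted p of at most 0.05, and log2FC is ABCC1 over empty vector. CPM per kilobase used exon bases that no other gene shares. Joint fits had experiment as a term or its interaction with line. Exact permutation tests used log2(CPM + 0.1). The counting interval is an exact binomial interval and covers counting error only, as do all statements on depth. The code was tested on simulated counts. Alternatives were DESeq2 1.42.0, its size factors (RLE), other filters, a replicate block, the background as a covariate, a spread shared over all 18 libraries and each library left out.

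Members and lists were chosen with earlier results of these data known. The genes named were all members, of each NAD list the called genes with the largest rise and fall in the first experiment at a mean CPM of at least 1, list genes called alike in at least 2 experiments, tested protein-coding genes within 500 kb of CD38 and the 5 genes most like CD38. Leukocyte, adrenergic, mesenchymal and glial markers were counted too. Of 7 mesenchymal markers 4 were higher and 2 lower with ABCC1 in the first experiment (2 and 2 by DESeq2), beside 37.6% of all genes, and 0 were called in the later ones, and of 5 glial markers 2 could be tested in the first and 5 in the later ones, with 0 called.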

Additional observations from a re-analysis of the deposited data

Results flagged for a closer look

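The effect of ABCC1 on 2 members differed between the 3 experiments by the interaction test in edgeR over all 18 libraries. For ACMSD the adjusted p was 2.44e-22. Its log2FC was −9.18 in the first, −1.48 in the second and −0.13 in the third experiment, and its level in the control cells was 9.46, 2.19 and 2.56 CPM per kilobase. For CD38 the adjusted p was 0.00772, with log2FC values of −2.95, −0.61 and −0.56. The mean olfactory receptor level in the control libraries was 0.00362, 0.618 and 1.69 CPM per kilobase in the same order. Both differences were also called with that level of each library as a covariate (adjusted p = 8.85e-33 for ACMSD and 0.000302 for CD38). In that fit of the first experiment alone CD38 was not called (log2FC −1.61, adjusted p = 0.617). There the covariate does not overlap between the arms and calls over all genes fell from 6382 to 268, so no conclusion is drawn from it. CD38 lay at 0.66 to 1.52 times that level in the 12 later libraries, and ACMSD at 1.06 to 2.35 times in the third experiment, so the smaller changes there do not show how ABCC1 acted on them. The kit of the first experiment and its cells cannot be told apart.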

How the results depend on the processing

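Members called in the first experiment (2) were 0 under a filter of 10 or more counts in each library (the strict filter), which removes CD38 and ACMSD by its construction, 1 with the background as a covariate, 3 with no filter on low counts and 2 to 3 with each library left out, where the added call was NMNAT1. In the second experiment (1) the number was 0 with the background as a covariate and 0 to 1 with each library left out, and in the third (0) it was 0 to 1, where leaving out ABCC1 replicate 1 brought a call of CD38 (log2FC −0.79, adjusted p = 0.0365). The common effect (2) gave 1 with RLE size factors, 1 with the strict filter (BST1, while CD38 and ACMSD were not tested), 0 with the background as a covariate and 4 with DESeq2, BST1 and ACMSD among them. The difference between experiments (2) gave 0 with the strict filter. The same-number correlations of libraries were −0.185 to −0.00829 in the first, −0.176 to −0.0102 in the second and −0.0501 to 0.118 in the third experiment, not all over 0.1 in any, so the numbers were not taken as pairs, and the replicate block called 2, 1 and 0 members in the 3 experiments, 2 in the common effect and 2 in the difference. It ended the call of NMNAT1 in the common effect (adjusted p = 0.0604) and brought one of SARM1 (0.0457), and of the further NAD genes it called 1 higher and 1 lower in the second experiment and 8 higher and 3 lower in the third. Of 433 alternative values of single members, 415 kept their direction and side of the threshold or stayed uncalled, 11 lost a call, 7 gained one and no called value reversed, while 39 of the 415 had the opposite sign with neither value called. The cause of these changes was not tested. Over all genes, calls in the first experiment went from 6382 to 268 with the background as a covariate and 1528 with the spread shared over all 18 libraries. In the second they went from 581 to 5 without control replicate 3, 24 without ABCC1 replicate 2 and 1359 without ABCC1 replicate 3. Leaving out another library there gave 207 to 300. The second also had 1086 with RLE size factors, 1402 with no filter on low counts and 12 with the background as a covariate. DESeq2 gave it 2583 and the shared spread 4923. In the third, calls went from 1021 to 1549 with DESeq2, 92 with the background as a covariate, 1725 with the strict filter and 1885 with the replicate block. They were 394 to 470 without any 1 of empty vector replicates 1 and 3 and ABCC1 replicates 2 and 3. Leaving out ABCC1 replicate 1 gave 2047 there, and leaving out empty vector replicate 2 gave 2761. The levels of CD38, BST1, NMNAT1 and ACMSD in the third experiment, and of CD38 in the second, lay near that of the background, so differences there are read beside it.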
